A study of Mus musculus and Mus musculus
Oryx dammah with 30 samples.

Results

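The Pramel members described here are 5 mouse genes of the PRAME family, Pramel4, Pramel5, Pramel6, Pramel7 and Gm13119, which is named Pramel31 in RefSeq. They were taken by gene name from 3 expression tables of nuclear transfer (NT) embryos, which list 53023, 53023 and 55364 genes for the four-cell, replication and two-cell experiments, and each table listed all 5 members once. In NT, nuclei of C2C12 cells, a mouse myoblast line from the C3H strain, were moved into embryos of C57BL/6 and DBA/2 parents that demecolcine, a microtubule blocker, held before cell division. RNA-seq was done on pools of whole embryos, so each library holds transcripts of donor and recipient nuclei together, and the values do not separate them. In the four-cell experiment, NT began at 46 h post insemination (hpi) and embryos were cultured for 24 h. Pools of 3 embryos gave 3 libraries without and 3 with α-amanitin, which blocks RNA polymerase II. The 3 columns that do not name amanitin are named PBS, read here as the vehicle. They were mapped to the group without α-amanitin because it is the only other group of this experiment. In the two-cell experiment, 6 libraries without and 6 with α-amanitin were made from pools of 5 embryos, with NT begun at 21 hpi (early) or 30 hpi (late). In the replication experiment, 3 libraries of the group labelled D and 3 of the group labelled DR were made from pools of 4 four-cell embryos, none with α-amanitin, and the labels do not say in which of these groups DNA was replicated. All groups were cultured in 0.1 µg/ml demecolcine.

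PRAME, the human gene after which the family is named, encodes a tumour antigen made of leucine-rich repeats, and in the mouse the family has expanded into clusters of related genes that are mostly active in germ cells and early embryos. Pramel7 is known to act as a substrate receptor of a CUL2-based ubiquitin ligase that directs UHRF1, a cofactor of the maintenance DNA methyltransferase DNMT1, to degradation. Pramel6 and Pramel7 are also known from naive embryonic stem cells, where signalling of the cytokine LIF through STAT3 raises Pramel7. Less is established about Pramel4, Pramel5 and Gm13119, which belong to the same leucine-rich repeat family.

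The members occupied 2 places in the mm10 genome. Pramel7 (2:87489087-87497093, minus strand) and Pramel6 (2:87506565-87510872, plus strand) are neighbours on chromosome 2 that point away from each other. Pramel4 (4:144059126-144069327, plus strand), Pramel5 (4:144270633-144280488, minus strand) and Gm13119 (4:144357942-144364419, plus strand) lie in the large family cluster of chromosome 4. All 5 are annotated as protein coding. The RefSeq promoter table (GRCm38.p6, the build called mm10) held all 5 members, Gm13119 as Pramel31. The 250 bases before the annotated start are printed here 5′ to 3′ for the members whose windows held a searched motif, since these genes moved together in the amanitin contrasts. Capitals mark matches on either strand to the 4 motifs searched, and no match overlapped another. The motifs were TATAAA (the TATA box), the box CCAAT, the letters TAATCC that bicoid-class homeodomain proteins are known to bind, and TGATTNAAT, part of the motif known for Dux. The windows are chr4:144058875-144059124 (plus) for Pramel4, chr4:144280467-144280716 (minus) for Pramel5, chr4:144357714-144357963 (plus) for Gm13119 and chr2:87506315-87506564 (plus) for Pramel6.
Pramel4: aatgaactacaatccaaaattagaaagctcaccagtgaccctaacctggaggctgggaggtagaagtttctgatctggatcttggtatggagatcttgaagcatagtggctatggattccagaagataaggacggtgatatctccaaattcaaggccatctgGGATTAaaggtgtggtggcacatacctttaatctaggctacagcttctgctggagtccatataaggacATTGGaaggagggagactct
Pramel5: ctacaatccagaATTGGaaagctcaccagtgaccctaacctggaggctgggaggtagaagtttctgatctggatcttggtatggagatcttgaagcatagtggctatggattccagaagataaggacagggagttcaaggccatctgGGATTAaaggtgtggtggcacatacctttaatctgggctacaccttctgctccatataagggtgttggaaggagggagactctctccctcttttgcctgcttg
Gm13119: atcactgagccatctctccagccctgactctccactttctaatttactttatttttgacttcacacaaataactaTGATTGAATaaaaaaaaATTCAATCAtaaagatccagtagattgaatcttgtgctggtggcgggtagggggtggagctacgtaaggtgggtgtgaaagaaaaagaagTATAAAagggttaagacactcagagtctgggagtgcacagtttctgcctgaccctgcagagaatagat
Pramel6: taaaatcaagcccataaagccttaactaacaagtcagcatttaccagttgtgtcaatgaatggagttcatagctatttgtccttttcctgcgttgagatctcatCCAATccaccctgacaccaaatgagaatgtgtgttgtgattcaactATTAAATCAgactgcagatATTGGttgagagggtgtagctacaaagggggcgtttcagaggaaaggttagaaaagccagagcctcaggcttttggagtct
The Pramel4 and Pramel5 windows aligned over 230 bases, of which 220 were identical, with 14 further bases in gaps. Both held TAATCC on the opposite strand, 88 and 103 bases before the start, as did 6.25% of the 32851 promoter windows of this length in the table. Gm13119 held TGATTNAAT 2 times and Pramel6 once, letters found in 0.658% of all windows, and Gm13119 was the member with TATAAA, found in 12.4% of all windows. CCAAT was present in Pramel4, Pramel5 and Pramel6 and in 33.8% of all windows. The Pramel7 window (chr2:87492419-87492668, minus), which lies inside the span given for Pramel7 in the expression tables, held none of these letters. These matches describe the sequence and were not tested as binding sites.

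The members differed in how much of their transcript is unique. Among the 50-base windows of the longest protein-coding transcript in GENCODE M21, 0 of 1732 windows of Pramel6 and 8 of 1812 of Pramel7 occurred in a transcript of another gene. The share was 27.1% for Pramel5, 38.6% for Gm13119 and 92.8% for Pramel4. Of the 2350 windows of Pramel4, 2148 also occurred in Gm13102, a protein-coding neighbour at 4:144106474-144110101 on the plus strand. The Pramel4 and Pramel5 transcripts aligned over 2136 bases with 2028 identical and 248 in gaps. Read numbers were recovered from FPKM (fragments per kilobase of gene and per 1000000 counted) and gene length. In the four-cell table every value of every member was a whole number of reads, within 0.01 of a read. In the two-cell and replication tables a part of the reads had been counted as fractions: Pramel6 was whole in 9 of 10 two-cell and 5 of 6 replication libraries with a value, whereas Pramel5 and Gm13119 were whole in none of theirs, Pramel4 in 1 of 12 two-cell and 0 of 6 replication libraries, and Pramel7 in 2 of 12 and 0 of 6. How reads that match Pramel4, Pramel5 or Gm13119 and also another gene were assigned is not given in the sources used here. The part of this in the values of these 3 members was not tested.

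**Figure D1:**
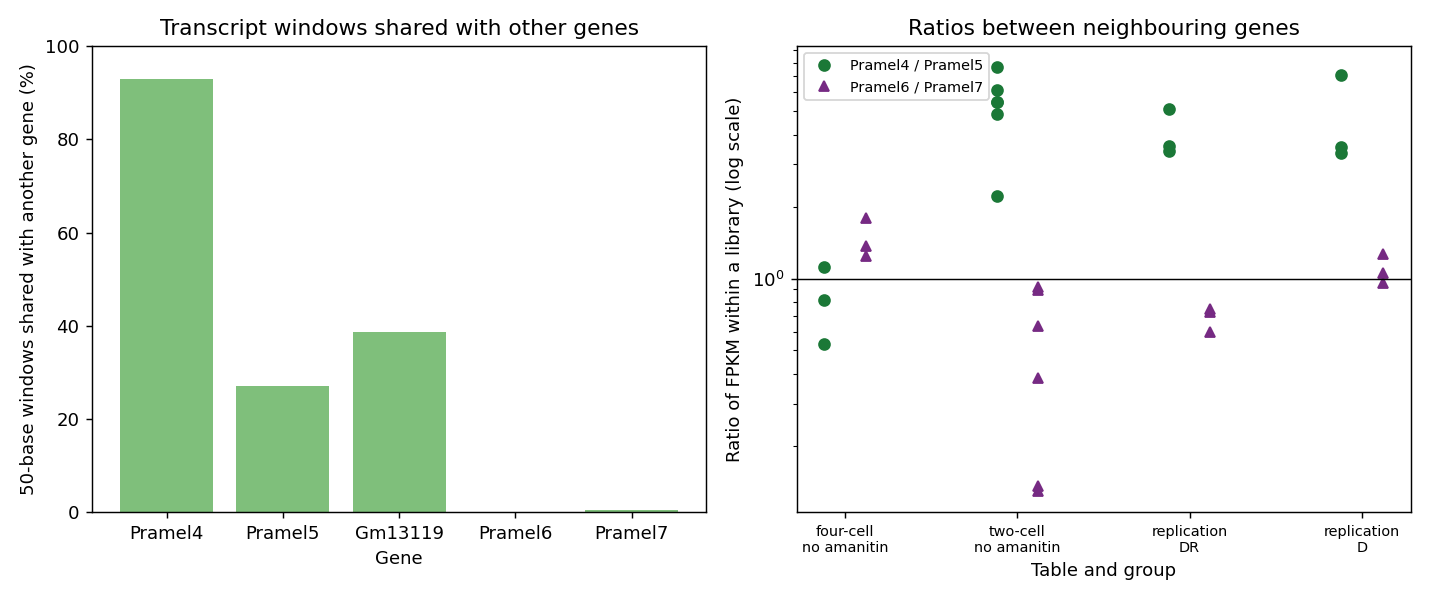
Left, percent of 50-base transcript windows that also occur in a transcript of another gene, for each member. Right, ratio of FPKM of Pramel4 to Pramel5 (circles) and of Pramel6 to Pramel7 (triangles) within each library without amanitin, on a log axis. Pramel4 shares 92.8% of its windows and Pramel6 none, and the Pramel4 to Pramel5 ratio lies between 0.532 and 1.12 in the four-cell libraries and between 2.22 and 7.66 in the two-cell libraries.

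Depth was 1136771 to 3101001 recovered reads per library in the four-cell table, about 4712266 to 10503778 in the two-cell table and about 2603946 to 19181380 in the replication table. Markers of the oocyte and early embryo summed to 8966 to 9956 FPKM without and 12190 to 16050 FPKM with amanitin in four-cell, 7212 to 12271 FPKM without and 780 to 7662 FPKM with amanitin in two-cell and 3471 to 4111 FPKM in DR and 4611 to 5743 FPKM in D, and 6 of these 7 markers passed the filter in each table. The 10 myoblast markers summed to 25.7 to 95.3 FPKM without and 96.7 to 291 FPKM with amanitin in the four-cell libraries. Cdh15, Tagln, Myf5 and Col1a1 were at 0 in the 3 libraries without amanitin, and Col1a1 was also at 0 in all those with it. In the two-cell table the myoblast sum was 18.5 to 483 FPKM without and 42.1 to 94.0 FPKM with amanitin. The 6 cumulus and granulosa markers summed to at most 31.6 FPKM in any library. Markers of the two-cell burst summed to 35.4 to 123 FPKM without and 0 to 10.3 FPKM with amanitin in the four-cell libraries, to 98.7 to 1057 and 17.2 to 39.6 FPKM in the two-cell libraries, and to 71.1 to 421 FPKM in DR and 25.2 to 2727 FPKM in D. The part of these marker sums in the member results was not tested.

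The four-cell amanitin contrast asked which transcripts required RNA synthesis during the 24 h after NT. All 5 members were higher without amanitin, and for each of them every library without amanitin lay above every library with it, as did 27.6% of the 9884 genes tested. All 5 passed the study's criteria for differentially expressed genes (DEGs), an adjusted p below 0.05 and a change of at least 4-fold, in limma on log2(FPKM + 1) with Benjamini-Hochberg adjustment, whereas 6.57% of all genes tested were called in either direction and 6.20% in this one. Libraries are named by their column names (S7, S15 and S17 without amanitin, S8, S16 and S18 with it). In whole embryos, fewer cells of a kind and less RNA per cell cannot be told apart.

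Of the chromosome 4 members, Pramel4 was at 61.3, 66.9 and 71.3 FPKM in the 3 libraries without amanitin and at 1.26, 1.41 and 4.01 FPKM in the 3 with it. The untreated libraries were close to each other (66.5 ± 5.00 FPKM, SD, n = 3), and the mean was 29.8-fold higher than under amanitin. The log2 change was 4.48 ± 0.39 (SE, adjusted p = 0.00202, limma). Pramel5 was at 54.8, 82.5 and 134 FPKM without and at 0.548, 1.15 and 4.07 FPKM with amanitin, where the library at 0.548 FPKM held 2 reads. Its mean was 47.1-fold higher without amanitin, and the log2 change of 5.06 ± 0.52 (SE, adjusted p = 0.00249, limma) was exceeded by 0.0708% of the 9884 genes, beside 0.253% for Pramel4, 0.455% for Pramel6, 1.80% for Pramel7 and 5.23% for Gm13119. Gm13119 was the weakest member, with 1.83, 4.61 and 5.74 FPKM without amanitin, from 7 to 26 reads. It was at 0 reads in all 3 libraries with amanitin. Against 3 reads per library, the number that a count of 0 allows, its mean was at least 4.64-fold higher without amanitin, for counting error only. Gm13119 passed the filter on low values only through the untreated libraries, so it could only come out higher in them.

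Of the chromosome 2 members, Pramel6 was at 270, 399 and 567 FPKM without amanitin and at 7.85, 28.7 and 42.9 FPKM with it. It was the most abundant member per length without amanitin (412 ± 149 FPKM, SD, n = 3), and its mean was 15.6-fold higher than under amanitin. The log2 change was 4.13 ± 0.56 (SE, adjusted p = 0.00579, limma). Pramel7 was at 198, 316 and 320 FPKM without and at 6.78, 47.4 and 83.3 FPKM with amanitin. The treated libraries were far apart, and the mean was 6.07-fold higher without amanitin. Its log2 change was 3.10 ± 0.75 (SE, adjusted p = 0.0316, limma). Under amanitin the mean of Pramel7 was 45.8 ± 38.3 FPKM (SD, n = 3) and that of Pramel6 was 26.5 ± 17.6 FPKM (SD, n = 3), with overlapping ranges.

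Leaving out the treated library S16, the highest for all 4 members with a value under amanitin, raised the fold of means to 49.7 for Pramel4, 107 for Pramel5, 22.5 for Pramel6 and 10.3 for Pramel7. Leaving out S8, the lowest for these 4, lowered the log2 change of Pramel6 to 3.45 and of Pramel7 to 2.09, and without S16 that of Pramel7 was 3.81. The Pramel7 call did not hold without each of the 3 untreated libraries (adjusted p = 0.0897 without S15, 0.114 without S17 and 0.122 without S7), without the treated library S18 (0.0565), with a pseudocount of 0.1 (0.063) or without the filter on low values (0.109). Gm13119 was not tested when an untreated library was left out, because it then fell below the filter, and its adjusted p was 0.0805 without the filter. An exact permutation test of a single gene cannot go below p = 0.1 with 3 against 3, and it gave that value for each member.

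**Figure D2:**
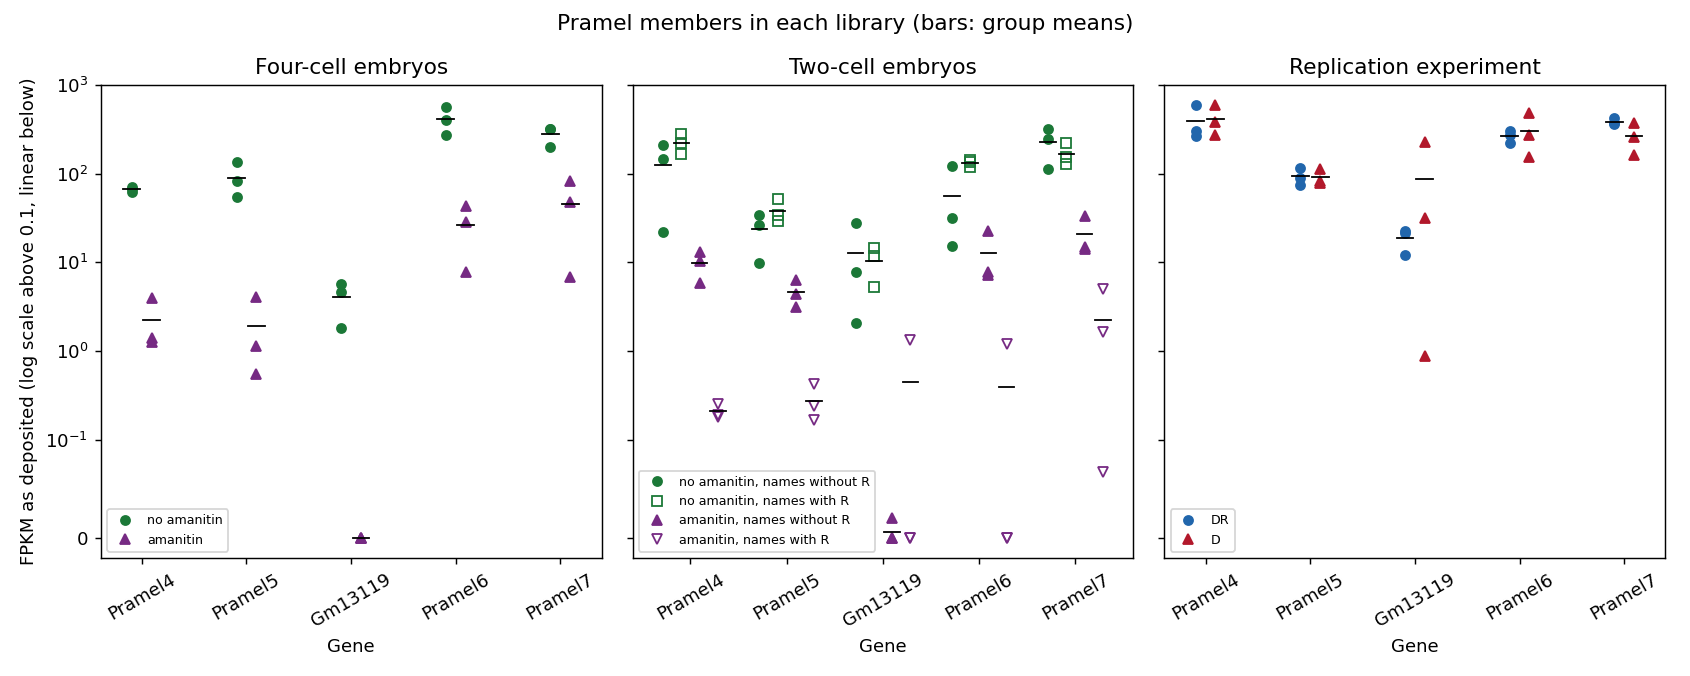
FPKM as deposited of each member in each library of the 3 tables, on an axis that is logarithmic above 0.1 FPKM and linear below, with bars at group means. The two-cell libraries are drawn in 2 sets by whether the column name carries an R. Without amanitin Pramel6 and Pramel7 lie at 198 FPKM or more in the four-cell table, and with amanitin the two-cell libraries with R in their names lie below those without R for Pramel4, Pramel5, Pramel6 and Pramel7.

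In the two-cell embryos the members were again higher without amanitin, with 6 libraries against 6. Pramel4 ranged from 21.9 to 282 FPKM (median 189) without and from 0.183 to 13.1 FPKM (median 3.07) with amanitin, and the groups did not overlap. Pramel5 ranged from 9.87 to 51.3 FPKM (median 31.6) without and from 0.166 to 6.29 FPKM (median 1.77) with amanitin, also without overlap. Gm13119 ranged from 2.05 to 28.0 FPKM (median 9.75) without amanitin. With amanitin it was listed at 0 in 4 of 6 libraries and reached 1.34 FPKM, or 26 reads, in library RAm1. Pramel6 ranged from 15.2 to 141 FPKM (median 120) without and from 0 to 22.8 FPKM (median 4.16) with amanitin. It was the member whose groups overlapped, because library NT3 without amanitin (15.2 FPKM) lay below library Am2 with it. Pramel7 ranged from 112 to 317 FPKM (median 187) without and from 0.0671 to 33.7 FPKM (median 9.59) with amanitin, and its groups did not overlap. Of all 17196 genes tested, 16.3% were without overlap in this direction.

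All 5 members passed the DEG criteria in the two-cell contrast after scaling to the ERCC spike-ins, artificial RNAs that the protocol adds to the lysed embryos. The background was high, since 34.0% of all genes tested were called higher without amanitin and the median change of all genes was 1.49 on the log2 scale. The log2 changes were 6.26 ± 0.83 for Pramel4 (SE, adjusted p = 3.23e-05, limma) and 5.78 ± 0.73 for Pramel7 (SE, adjusted p = 2.49e-05, limma). They were 5.16 ± 0.85 for Pramel6, 4.40 ± 0.60 for Pramel5 and 3.83 ± 0.52 for Gm13119 (SE), with adjusted p-values of 0.000132, 4.11e-05 and 4.11e-05 by limma. Relative to the median of all genes, the members exceeded it by 4.78 (Pramel4), 4.29 (Pramel7), 3.67 (Pramel6), 2.91 (Pramel5) and 2.35 (Gm13119) on the log2 scale. The exact two-sided permutation test gave 0.00216, the smallest p that 6 against 6 allows, for 4 members and 0.00433 for Pramel6. On FPKM as deposited, which divides every library by its own total, 11.1% of genes were called higher without amanitin, and the 5 members were still among them, with log2 changes of 3.10 (Gm13119) to 5.31 (Pramel4). With scaling by the median of ratios over genes, 4.95% of genes were called higher and the members ranged from 2.58 (Gm13119) to 4.83 (Pramel4). The median change of all genes was 0.67 as deposited and 0.23 with the median of ratios. Of all DEGs, 99.5% were higher without amanitin after spike-in scaling, 87.5% on FPKM as deposited and 53.2% with the median of ratios. The share of genes with a larger spike-in scaled change was 0.105% for Pramel4, 0.221% for Pramel7, 0.587% for Pramel6, 1.84% for Pramel5 and 4.13% for Gm13119.

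The two-cell columns fall into 2 sets of 3 against 3 by their names, which carry an R (R and RAm) or do not (NT and Am). Which set holds the early and which the late embryos is not given by the names. With amanitin, Pramel4 was at 5.89, 10.5 and 13.1 FPKM in the set without R and at 0.183, 0.192 and 0.255 FPKM in the set with R, where these values rest on 3 to 6 reads. Pramel5 was at 3.11, 4.43 and 6.29 FPKM in the first and at 0.166, 0.243 and 0.421 FPKM in the second set. Pramel7 was at 14.1, 15.1 and 33.7 FPKM in the first and at 0.0671, 1.65 and 5.04 FPKM in the second. For these members no treated library with R in its name reached the lowest treated library without it. Pramel6 was at 7.13, 7.87 and 22.8 FPKM in the first set, whereas in the second it had 22 reads in library RAm2 (1.20 FPKM) and 0 reads in the other two.

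Without amanitin the sets were closer. Pramel4 was at 21.9, 145 and 210 FPKM in the set without R and at 167, 223 and 282 FPKM in the set with R. Pramel6 was at 15.2, 31.5 and 121 FPKM in the first and at 119, 137 and 141 FPKM in the second. Pramel7 was at 112, 244 and 317 FPKM in the first and at 129, 153 and 221 FPKM in the second, and for each of these 3 members the ranges of the sets overlapped. Library NT3 was the lowest untreated library for all 5 members. NT3 also had the highest myoblast sum of the untreated libraries (483 FPKM, beside 18.5 to 177), the lowest two-cell burst sum (98.7 FPKM, beside 349 to 1057) and the highest spike-in share (6.26%, beside 2.38% to 4.22%), and the part of these in its member values was not tested. Without NT3 the change over all two-cell libraries was 6.94 for Pramel4 and 5.75 for Pramel6 on the log2 scale. Within the set without R, untreated and treated libraries did not overlap for 4 members, Pramel6 being the exception, as for 26.8% of genes. Within the set with R they did not overlap for any of the 5, as for 61.5% of genes. In these sets Gm13119 without R and Pramel4 and Pramel5 with R reached 1 FPKM in no treated library, so each passed the filter of its set only through the untreated libraries and could only come out higher in them. Pramel6 made up a smaller part of its pair in the set without R, with 0.129 to 0.382 times the FPKM of Pramel7, than in the set with R, with 0.635 to 0.926 times.

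**Figure D3:**
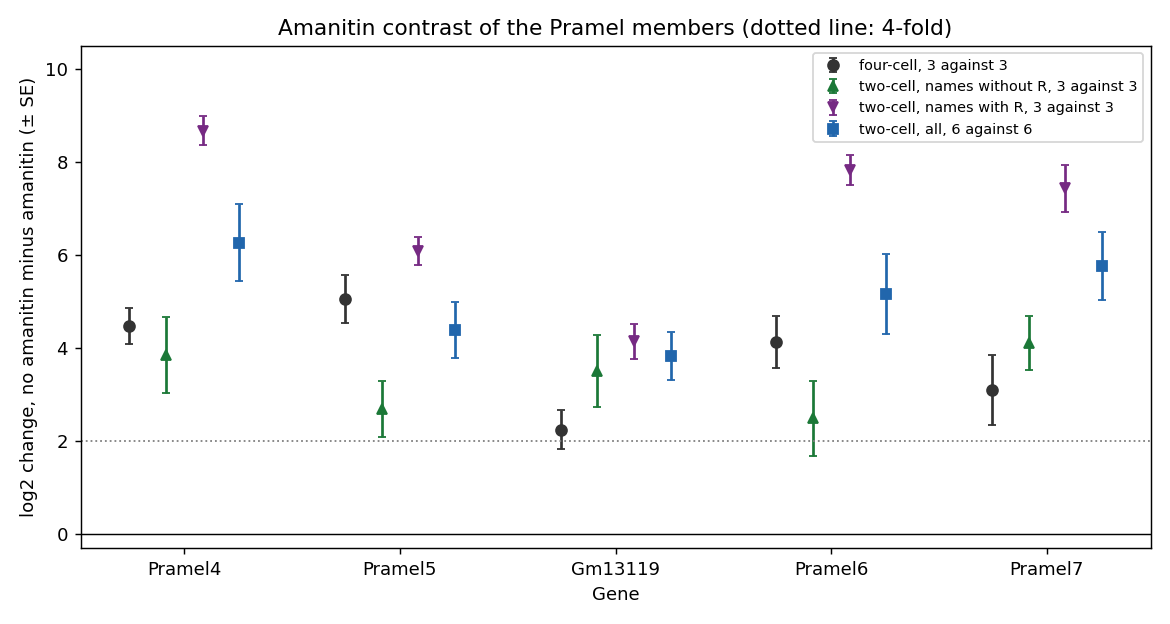
Log2 change, no amanitin minus amanitin, of each member with its standard error from limma, for the four-cell contrast, for each set of two-cell columns and for all two-cell libraries. Every point lies above the dotted line at 4-fold, and the set with R in its names exceeds the set without R by most for Pramel4 and Pramel6.

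Fitted within each set and scaled to spike-ins, the change of Pramel4 was 3.85 ± 0.82 without R and 8.68 ± 0.31 with R on the log2 scale (SE, n = 3 against 3 in each). Pramel6 changed by 2.49 ± 0.80 and 7.83 ± 0.31, Pramel7 by 4.12 ± 0.58 and 7.44 ± 0.51, Pramel5 by 2.70 ± 0.61 and 6.09 ± 0.29, and Gm13119 by 3.52 ± 0.77 and 4.15 ± 0.38. On FPKM as deposited the difference for Pramel6 in the set without R was 1.74, below 4-fold, and the exact permutation test gave p = 0.2 there under either scaling. All 5 members were called in both sets. In the set without R the 4 members other than Gm13119 were at 1 FPKM or more in all 3 treated libraries. In the set with R this held for 2 treated libraries for Pramel7 and for 1 each for Gm13119 and Pramel6. The filter asks for 3 libraries, so these 3 members also needed untreated libraries to pass it. The remaining ones were called with the filter limit just given. Of all genes, 9.13% were called higher without amanitin in the set without R and 63.1% in the set with R. The difference between the sets, tested as an interaction in limma, was 5.34 ± 1.03 for Pramel6 (SE, adjusted p = 0.000774) and 4.83 ± 1.06 for Pramel4 (SE, adjusted p = 0.0018). It was 3.40 ± 0.74 for Pramel5 (SE, adjusted p = 0.00182, limma) and 3.32 ± 0.87 for Pramel7 (SE, adjusted p = 0.00588, limma). For Gm13119 it was 0.64 ± 1.01 (SE, adjusted p = 0.62, limma), and the sign turned on FPKM as deposited. The background was again high, since 34.6% of all genes were called with a larger change in the set with R, and the median difference of all genes was 1.42. The marker sums of the treated libraries also differed between the sets, with 780 to 1365 FPKM of oocyte and early embryo markers with R and 6688 to 7662 FPKM without, and 0.135 to 1.14 FPKM of cumulus and granulosa markers with R and 9.39 to 12.6 FPKM without, and their part in the difference was not tested. Spike-ins took 8.77% to 11.3% of the signal in the treated libraries with R and 6.54% to 8.93% in those without. Their share was 2.38% to 2.81% in the untreated libraries with R and 3.15% to 6.26% in those without. The part of this share in the difference was not tested beyond the interaction fit on FPKM as deposited. That fit called the same 4 members. It also called 3432 of all 17196 genes tested with a larger change in the set with R, and the median difference was 0.76.

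The replication experiment compared NT embryos of group DR with those of group D, without amanitin. No member was called, and 0% of the 14570 genes tested were called. In limma 88 genes had an unadjusted p below 0.05 after spike-in scaling and 897 on FPKM as deposited. Pramel4 was at 264, 306 and 599 FPKM in DR and at 275, 381 and 591 FPKM in D. Pramel5 was at 74.0, 89.3 and 117 FPKM in DR and at 77.5, 82.9 and 114 FPKM in D. Pramel6 was at 224, 271 and 305 FPKM in DR and at 156, 272 and 478 FPKM in D. For these 3 genes the libraries of both groups overlapped. Pramel7 was at 362, 375 and 420 FPKM in DR and at 163, 259 and 376 FPKM in D, so that 2 of 3 D libraries lay below every DR library. Gm13119 was at 12.2, 21.6 and 22.7 FPKM in DR and at 0.873, 31.3 and 230 FPKM in D. Groups did not overlap for 12.2% of genes in this experiment but overlapped for all 5 members.

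On FPKM as deposited the log2 differences, DR minus D, were -0.12 ± 0.39 for Pramel4, 0.02 ± 0.26 for Pramel5, -0.04 ± 0.39 for Pramel6 and 0.61 ± 0.31 for Pramel7 (SE, n = 3 against 3), with adjusted p-values of 0.952, 0.986, 0.984 and 0.788 by limma. For Gm13119 it was -0.33 ± 1.52 (SE, adjusted p = 0.967, limma). After spike-in scaling, as the study normalized its data, the differences were -1.77 for Pramel4, -1.61 for Pramel5, -1.69 for Pramel6, -1.03 for Pramel7 and -2.42 for Gm13119, beside a median of -1.41 over all genes, with adjusted p-values of 0.713 to 0.726 by limma. Their standard errors were between 2.28 and 2.41, and the spike-in size factors ran from 0.0937 in library D1 to 5.60 in library D5 (spike-in shares of 0.0181% and 0.776%). Differences of several fold between D and DR were not detectable with errors of this size.

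The D library with 230 FPKM of Gm13119, D1, differed from the other 5 replication libraries in further family genes, which were chosen here after their values were seen. Of 34 family genes at 1 FPKM or more in D1, 7 were at least 10 times above the highest of the other libraries, while 2.27% of all genes at 1 FPKM or more in D1 met this mark. Among these 7 were A430089I19Rik (Pramel39) at 447 FPKM, with at most 0.518 FPKM elsewhere, and Gm12794 (Pramel19) at 433 FPKM, with at most 2.47 FPKM elsewhere. None of the 7 was one of the 5 members. D1 was also the D library with 2727 FPKM of two-cell burst markers, beside 25.2 to 421 FPKM in the other 5 libraries, and the part of this in the family values was not tested. Without D1 the spike-in scaled difference of Gm13119 was 0.20 and that of Pramel7 was 0.27, both of the opposite sign to the fit with all libraries.

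The order of the members by level per length was not the same in the 3 tables, which were normalized separately and are set side by side without a test. In the four-cell libraries without amanitin the order of mean FPKM was Pramel6 (412), Pramel7 (278), Pramel5 (90.4), Pramel4 (66.5) and Gm13119 (4.06). Pramel6 overlapped Pramel7, and Pramel5 overlapped Pramel4, while the other neighbours were apart. In the two-cell libraries without amanitin it was Pramel7 (196), Pramel4 (175), Pramel6 (94.1), Pramel5 (30.9) and Gm13119 (11.5), and the ranges of all neighbours overlapped. The set with R alone had Pramel4 (224) above Pramel7 (168), and the set without R had Pramel7 (224) above Pramel4 (126), with overlapping ranges in both. In DR it was Pramel4 (390), Pramel7 (386), Pramel6 (267), Pramel5 (93.3) and Gm13119 (18.8), where among neighbours in this order Pramel4 and Pramel7 overlapped, and Pramel4 (264 FPKM at its lowest) also overlapped Pramel6 (305 FPKM at its highest). In D it was Pramel4 (416), Pramel6 (302), Pramel7 (266), Pramel5 (91.4) and Gm13119 (87.4), where Pramel7 and Pramel5 did not overlap. Pramel4 was 0.532 to 1.12 times Pramel5 within the four-cell libraries without amanitin, but 2.22 to 7.66 times in the two-cell libraries without amanitin and 3.35 to 7.12 times in the replication libraries. Gm13102, which shares most Pramel4 windows, stood at a like level to Pramel4 in each table, with 57.9 ± 13.5 FPKM (SD, n = 3) without amanitin in the four-cell table, 172 ± 87.4 FPKM (SD, n = 6) in the two-cell table and 393 ± 189 FPKM (SD, n = 3) in DR. The Pramel4 level across tables cannot be told apart from the way reads of the 2 genes were counted.

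Beyond the members, each table listed 35 further genes of the PRAME family list. The list was drawn up by gene names and may be incomplete. Gm13102, which shares most Pramel4 windows, is not on it. Gm13057, in which 440 of the 2045 Gm13119 windows also occur, is not on it either. In the four-cell contrast 20 of all 40 family genes passed the filter and 10 were DEGs higher without amanitin, beside 6.20% of all genes tested. Of these 20, 6 reached 1 FPKM in no library with amanitin and so could only come out higher without it, and 5 of the 6 were among the DEGs (Gm13119, D5Ertd577e, Gm13128, Pramef25 and Pramef17). Of the other 14 genes, 5 were DEGs: Pramel4, Pramel5, Pramel6, Pramel7 and, as the only gene beyond the members, Gm3139. The 10 thus include the 5 members, which were chosen with earlier results of these data known. Beside the 5 members the DEGs were Gm3139 (Pramel42), with a log2 change of 4.82 ± 0.43 (SE, adjusted p = 0.00202, limma), D5Ertd577e (Pramel48) with 3.97, Gm13128 (Pramel30) with 3.58, Pramef25 (Pramel16) with 2.94 and Pramef17 (Pramel14) with 2.87. The family count fell to 4 without any 1 of the 3 untreated libraries and to 6 without the filter.

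In the two-cell contrast 34 of 40 family genes passed the filter. After spike-in scaling 12 were DEGs higher without amanitin, or 35.3%, beside 34.0% of all genes tested. The 12 include all 5 members, chosen with earlier results known, so the share among the further family genes alone was lower than 35.3%. Pramef25 and Gm13101 (Pramel28), both among the 12, reached 1 FPKM in no library with amanitin and so could only come out higher without it. The 10 with the largest change were the members except Gm13119, together with Gm3139 (5.99), B020004J07Rik (Pramel17, 5.58), D5Ertd577e (5.53), Pramef25 (5.10), Gm13128 (4.14) and Pramef17 (3.93) on the log2 scale, each with an adjusted p of at most 0.000187 by limma. The median of the 34 genes was 1.24, below the 1.49 of all genes tested. The count of 12 higher genes was the same on FPKM as deposited and with the median of ratios, but the count of lower genes was 0 after spike-in scaling, 9 on FPKM as deposited and 14 with the median of ratios, where 1.58% and 4.36% of all genes were called lower. The genes of this second kind, picked here after their values were seen, include Oog1 (oogenesin 1, an oocyte gene), at 35.3 FPKM on average without and 301 FPKM with amanitin. Their direction did not turn but their call did, with a log2 change of -1.21 ± 0.59 for Oog1 after spike-in scaling (SE, adjusted p = 0.0719, limma) and -3.41 ± 0.75 with the median of ratios (SE, adjusted p = 0.00588, limma). Gm10436 (Pramel51) was at 43.7 FPKM without and 475 FPKM with amanitin, with -1.39 ± 0.64 (SE, adjusted p = 0.0592, limma) after spike-in scaling and -3.60 ± 0.83 (SE, adjusted p = 0.00725, limma) with the median of ratios. The 5 members were higher without amanitin under every scaling run.

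**Figure D4:**
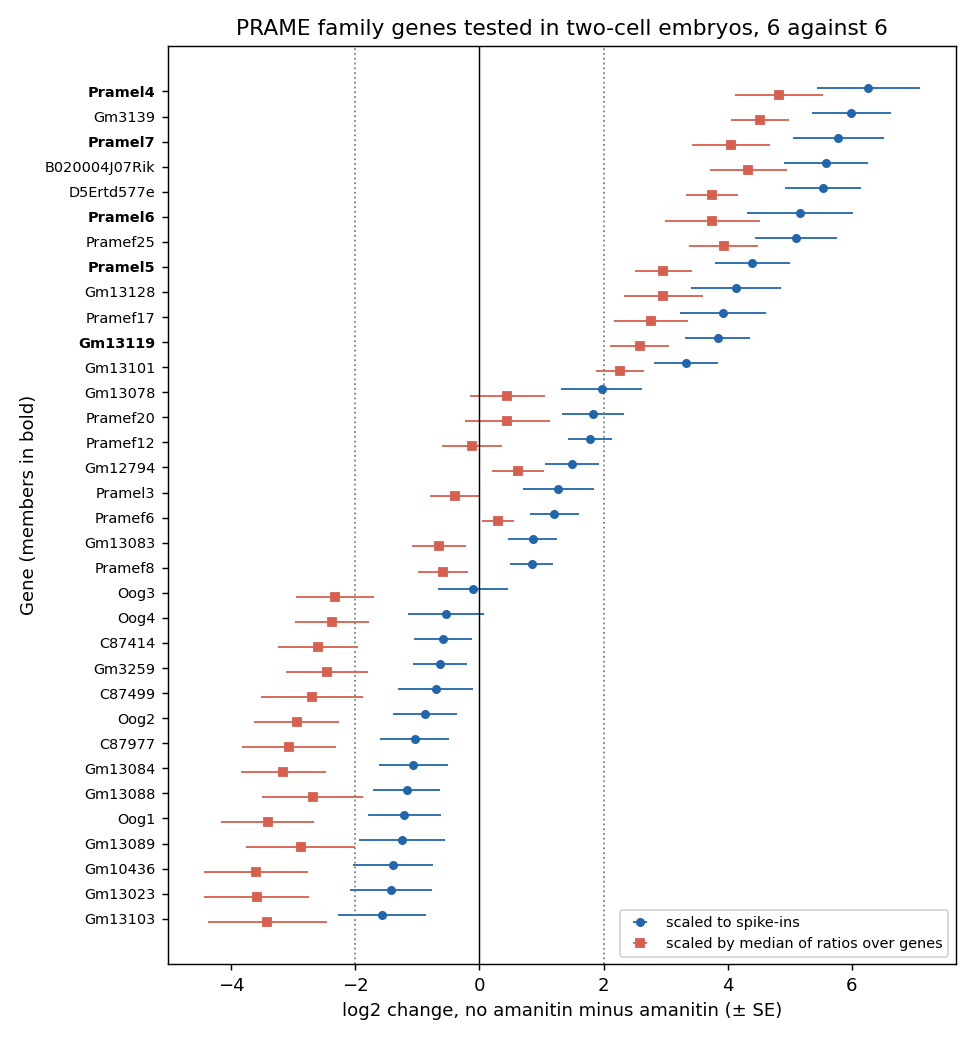
Log2 change with its standard error for the 34 PRAME family genes tested in the two-cell amanitin contrast, under spike-in scaling (circles) and scaling by the median of ratios over genes (squares), with dotted lines at 4-fold. The members (bold) and 7 further genes lie to the right of 4-fold under both, whereas 14 genes lie to the left of it with the median of ratios and none after spike-in scaling.

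Of the partners of the Pramel7 ligase, none of the 5 genes tested was called in the four-cell contrast, with log2 changes, no amanitin minus amanitin, of 1.71 ± 0.54 for the scaffold Cul2 (SE, adjusted p = 0.0705, limma) and between -0.47 and 0.13 for the adaptors Elob and Eloc, the RING subunit Rbx1 and the methyltransferase Dnmt1. Uhrf1 was below the filter there, at 0.109 to 0.898 FPKM in every library. In the two-cell contrast Cul2 (2.82), Elob (2.05), Eloc (3.94) and Rbx1 (2.77) were called higher without amanitin after spike-in scaling, with adjusted p-values of 0.000325 to 0.00909 by limma, beside 34.0% of all genes called higher and a median change of 1.49. Eloc alone was called on FPKM as deposited, and none with the median of ratios, where Elob turned to -0.16. Uhrf1 stood at 1.53 ± 0.35 FPKM without and 4.06 ± 2.86 FPKM with amanitin (SD, n = 6). Its log2 change of 0.17 ± 0.32 after spike-in scaling (SE, adjusted p = 0.633, limma) turned to -0.84 on FPKM as deposited. With the median of ratios it was -1.44 (adjusted p = 0.0343, limma). Dnmt1 stood at 2.49 ± 0.56 FPKM without and 3.34 ± 0.76 FPKM with amanitin (SD, n = 6). Its change of 0.74 after spike-in scaling (adjusted p = 0.0386, limma) turned to -0.31 on FPKM as deposited. With the median of ratios it was -0.93 (adjusted p = 0.0381, limma), so its sign depended on the scaling. In the replication experiment none of the 6 genes was called.

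Of the LIF and STAT3 list, Lif, Lifr, Il6st, Stat3 and Socs3 were below the filter in the four-cell table and only the kinase Jak1 was tested, which was not called (0.61 ± 0.47, SE, adjusted p = 0.427, limma). In the two-cell contrast, Il6st, Jak1, Stat3 and Socs3 passed the filter, and Socs3, a feedback inhibitor that STAT3 induces, was called, at 2.51 to 5.84 FPKM without and 0 to 0.147 FPKM with amanitin. Its log2 change was 2.91 ± 0.34 (SE, adjusted p = 1.37e-05, limma), falling to 1.88, below 4-fold, with the median of ratios. Socs3 passed the filter only through the libraries without amanitin, so it could only come out higher in them. Lif was at most 0.692 FPKM and Stat3 at most 2.47 FPKM in any library of the 3 tables, beside 112 FPKM or more of Pramel7 in every library without amanitin. None of the 3 tested genes of this list was called in the replication experiment.

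The genes outside the family list whose pattern was most like that of the members were Zfand5, Gm13102, Mad2l1bp, Rrp36 and Atg14. Likeness was the lower of Pearson's r with the members' mean standardised log2(FPKM + 1) over the 6 four-cell libraries and over the 12 two-cell libraries, among 9325 genes that passed the filter in both, and the points share library and depth. These 5 genes had r of at least 0.977 in both tables. The members themselves had 0.885 (Gm13119) to 0.992 (Pramel5), but each is part of the mean it was set against, which raises its r. Mad2l1bp, which encodes a partner of the spindle checkpoint protein MAD2, was at 345 to 801 FPKM without and 8.43 to 28.4 FPKM with amanitin in the four-cell libraries. Gm13102 is the gene that shares windows with Pramel4, and its likeness cannot be told apart from that sharing.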

How the data were processed

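Embryo pools were amplified with SMART-seq, and the authors deposited FPKM per gene for the 3 mouse tables; by their methods and processing notes, reads were trimmed (Trimmomatic, Trim Galore, cutadapt), aligned to mm10 with STAR and counted with featureCounts. Tool versions and the treatment of reads that match several genes are not given in the sources used here. Sample groups came from the deposited labels; 4 columns of the replication table that match no sample label and the table of oryx embryos, which also holds the authors' fold changes and p-values, were not used here. Columns of group D are numbered 1, 4 and 5 and were mapped to the group, not to single samples. The study calls the 3 libraries of a group independent biological replicates. FPKM were scaled to ERCC spike-ins (median of ratios over spike-ins above 0 in every library, at least 10 of them), with 47 in the two-cell and 19 in the replication table; the four-cell table lists 0 and was used as deposited. Genes with at least 1 FPKM in at least 3 libraries of a comparison were tested by limma 3.58.1 (R 4.3.3) with a mean-variance trend on log2(FPKM + 1), which understates changes of low genes, and Benjamini-Hochberg adjustment over all genes tested. Single genes were also tested by exact two-sided permutation (scipy), and the fit was checked on simulated data. Members, lists and motifs were chosen with earlier results of these data known; family genes were named where called, up to 10 per contrast by size of change, as were the 5 genes most like the members. The two-cell column sets were compared after their values were seen. Reads carry no molecular identifiers, so counts give counting error only.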

Additional observations from a re-analysis of the deposited data

Results flagged for a closer look

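The amanitin effect on log2 FPKM, scaled to spike-ins, differed between the 2 sets of two-cell columns for 4 members by an interaction term in limma, being larger in the set with R in its names by 4.83 for Pramel4, 3.40 for Pramel5, 5.34 for Pramel6 and 3.32 for Pramel7. The same term was called in this direction for 34.6% of all genes tested, with a median difference of 1.42. In treated libraries the sets also differed in oocyte marker sums (780 to 1365 FPKM with R, 6688 to 7662 FPKM without). These sets are defined by column names, and their relation to early and late embryos was not given.

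Of 10 groups of 6 two-cell libraries examined for a library far from the others (a member with or without amanitin), 2 had one. Chance gives about 1 in 20 for groups of like libraries, a rate that need not hold here, since each group pools both sets of columns and the group of Gm13119 holds 4 values of 0. Library RAm1 held Gm13119 at 1.34 FPKM, with 4 of the other 5 treated libraries at 0. Library Am2 held Pramel6 at 22.8 FPKM, beside at most 7.87 FPKM in the other 5 treated libraries.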

How the results depend on the processing

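The direction of the members held under each alternative in which they were tested for both amanitin contrasts (Gm13119 was not tested in the four-cell fits without S7, S15 or S17). In the four-cell contrast 649 DEGs were found, 264 without the filter and 60 to 889 with 1 library left out (60, 88 and 127 without the untreated libraries S7, S15 and S17), and 5 members were called, but 3 without the filter and 3 to 5 with 1 library left out; 10 family genes were called higher, 6 without the filter and 4 to 10 with 1 library left out. Limma voom on recovered reads, of which at least 99.96% of values per library were whole, called 973 genes and all 5 members. It was not run on the other tables, where 40.3% to 50.5% of values were whole. In the two-cell contrast 5879 DEGs became 10263 with a pseudocount of 0.1, 1600 with the median of ratios, 2178 on FPKM as deposited, and 1328 and 9241 (spike-in scaled) within the sets of columns without and with R (chosen after seeing the data), all with 5 members called, of which Gm13119 without R and Pramel4 and Pramel5 with R passed the filter only through untreated libraries. Family DEGs lower without amanitin went from 0 to 14 with the median of ratios, 9 on FPKM as deposited, 3 within the set with R and 0 to 1 with 1 library left out (1 without Am3). In the replication experiment 0 DEGs became 1 without D5 (0 to 1 with 1 library left out). Differences there reversed for Pramel7 with the median of ratios (0.56), on FPKM as deposited (0.61) and without D1 (0.27; -2.40 to 0.27 with 1 library left out), for Pramel5 on FPKM as deposited (0.0246) and for Gm13119 without D1 (0.20; -5.33 to 0.20 with 1 library left out), and the difference between two-cell sets reversed for Gm13119 on FPKM as deposited (-0.18); the cause was not tested. With the replicate block formed from the column numbers within each two-cell set, 5870 genes and all 5 members were called; the deviations of same-numbered libraries correlated at -0.004 to 0.079, so the numbers were not used as pairs. No paired analysis was possible for the other 2 tables because no number in the four-cell column names is shared between the groups or stands in a sample title, and D and DR share 1 number.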
